A study of Mus musculus with 9 samples.

Results

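The genes described here are the haemoglobin and erythroid genes of the mouse heart transcriptome: the adult alpha globin genes Hba-a1 and Hba-a2, the adult beta globin genes Hbb-bs and Hbb-bt, Alas2, Slc4a1, Epb42 and Bpgm. These 8 genes were taken by name from a table of 127558 annotated transcripts that belong to 41710 gene names, and the reads and TPM (transcripts per 1000000 transcripts) of all transcripts with the same gene name were summed.

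Haemoglobin is the oxygen carrier of red blood cells and is built from alpha and beta globin chains, each with a haem group. Alas2 encodes the erythroid form of the first enzyme of haem synthesis, Slc4a1 and Epb42 encode the anion exchanger band 3 and the membrane protein 4.2 that binds it, and Bpgm encodes bisphosphoglycerate mutase, which makes the 2,3-bisphosphoglycerate that lowers the oxygen affinity of haemoglobin. Mature red cells have no nucleus, whereas their young forms, the reticulocytes, still carry globin mRNA, and a heart that is frozen whole holds the blood left in its vessels and chambers.

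RNA-seq data were available for hearts of male FVB/N mice at 8 months of age, with 3 mice in each of 3 groups. Tg-RKIP mice carried an RKIP transgene (RKIP is the Raf kinase inhibitor protein, gene Pebp1) under control of the alpha-MHC promoter, which is active in heart muscle cells. Mice labelled Tg-GRK2 carried a transgene of the G-protein-coupled receptor kinase GRK2, with a promoter not given in the sources used here. The control group, FVB, consisted of non-transgenic mice of the same strain, sex and age. Frozen hearts were pulverised, and fragmented mRNA was copied with random hexamers and sequenced in single reads of 50 bases.

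The libraries held between 25458108 and 33447654 reads each. Pebp1 stood at 16198 ± 208 TPM (mean ± s.d., n=3) in Tg-RKIP and at 325 ± 4.54 TPM in FVB, whereas Grk2 stood at 27.3 ± 2.90 TPM in the hearts labelled Tg-GRK2 and at 27.1 ± 1.05 TPM in FVB, so mouse Grk2 reads did not distinguish those hearts from controls. All 7 heart muscle markers were detected in every group, with a summed level between 45808 and 48684 TPM per library. Reads of mitochondrially encoded genes made up 11.5% to 11.8% of the Tg-RKIP libraries and 22.4% to 23.2% of the other libraries. With these genes left out before normalization, the calls of the members were the same as with them, for example a log2 fold change of 1.98 for Hba-a1 in Tg-RKIP against FVB.

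The globin genes lie in clusters of near copies, and the sequence before their start sites is given first because it shows what these members share and how Alas2 differs from them. The 150 bases before the RefSeq start site are from the C57BL/6J reference genome, build GRCm38.p6, as listed by RefSeq for 7 of the 8 members. Capitals mark matches on either strand to 4 short motifs. One is the CCAAT box, and another is the KLF-type motif CCNCNCCC, in which N is any base. The third is GATAA, the core bound by GATA factors. The last is the TATA-type motif ATATAA, which was chosen after the sequences were seen.
Hba-a1, chr11:32283522-32283671, plus strand: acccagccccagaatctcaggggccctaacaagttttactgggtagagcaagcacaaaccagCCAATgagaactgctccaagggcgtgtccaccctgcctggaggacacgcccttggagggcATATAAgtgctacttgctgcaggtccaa
Hbb-bs, chr7:103827929-103828078, minus strand: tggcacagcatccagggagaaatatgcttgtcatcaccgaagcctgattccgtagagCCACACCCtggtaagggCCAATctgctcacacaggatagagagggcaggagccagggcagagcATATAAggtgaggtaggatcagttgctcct
Hbb-bt, chr7:103813924-103814073, minus strand: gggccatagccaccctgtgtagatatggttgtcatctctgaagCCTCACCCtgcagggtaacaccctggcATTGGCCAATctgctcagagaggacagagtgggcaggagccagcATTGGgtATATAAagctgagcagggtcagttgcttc
Alas2, chrX:150547267-150547416, plus strand: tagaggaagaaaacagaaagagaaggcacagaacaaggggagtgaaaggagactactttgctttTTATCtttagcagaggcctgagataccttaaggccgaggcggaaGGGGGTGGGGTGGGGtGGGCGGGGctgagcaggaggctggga

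The window of Hba-a2 shared an identical run of 147 bases with that of Hba-a1, while the longest identical run was 14 bases between Hbb-bs and Hbb-bt and 9 bases between Hba-a1 and Hbb-bs. CCAAT was present in the windows of the 4 globin genes and of Bpgm, and in 24.5% of 32851 promoter windows of the same length. ATATAA was present in the 4 globin genes alone among the members and in 5.35% of all windows. The KLF-type letters were found in Hbb-bs, Hbb-bt, Alas2 and Bpgm and in 38.1% of all windows, with matches in Alas2 that overlap each other. GATAA was found, on the opposite strand, in Alas2 only among the members, and in 13.3% of all windows. These matches are descriptions of letters and not evidence of binding.

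The 4 adult globin genes were higher in both transgenic groups than in FVB hearts, and higher in Tg-RKIP than in the hearts labelled Tg-GRK2. Summed over the 4 genes, 1283, 1263 and 1330 of every 1000000 reads (RPM) were globin reads in the Tg-RKIP hearts. The corresponding values were 613, 620 and 617 in the hearts labelled Tg-GRK2 and 282, 280 and 286 in the FVB hearts. The groups did not overlap, as was the case in the same direction in TPM for 64.3%, 22.9% and 61.6% of all tested genes in the 3 comparisons that follow. The group means stood in ratios of 4.57 for Tg-RKIP over FVB, 2.18 for the hearts labelled Tg-GRK2 over FVB, and 2.09 for Tg-RKIP over the hearts labelled Tg-GRK2. Each of these differences reached p = 0.1 in a two-sided exact permutation test (adjusted p = 0.1 over 6 comparisons), which is the smallest value that 3 against 3 libraries allow. Scaling by total reads also raised the median of all tested genes, by 0.38 on the log2 scale in both comparisons with Tg-RKIP. With TMM normalization, the single globin genes were 3.03-fold to 4.21-fold higher in Tg-RKIP than in FVB. Against the hearts labelled Tg-GRK2 they were 1.31-fold to 2.01-fold higher. In bulk tissue, more cells of a type and more RNA per cell cannot be told apart.

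The share of globin in the transcriptome was small in all groups. It amounted to between 0.126% and 0.133% of the reads in Tg-RKIP, 0.0613% and 0.0620% in the hearts labelled Tg-GRK2, and 0.0280% and 0.0286% in FVB. With the mitochondrially encoded genes left out of the denominator, the mean globin level was 1462 ± 38.8 RPM in Tg-RKIP, 797 ± 5.72 in the hearts labelled Tg-GRK2 and 368 ± 4.31 in FVB. Within the FVB group and the group labelled Tg-GRK2, the variance of the summed globin reads between hearts was 0.870 and 0.555 times the counting variance. In Tg-RKIP it was 26.3 times the counting variance, although the coefficient of variation there was still only 2.69%.

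**Figure D1:**
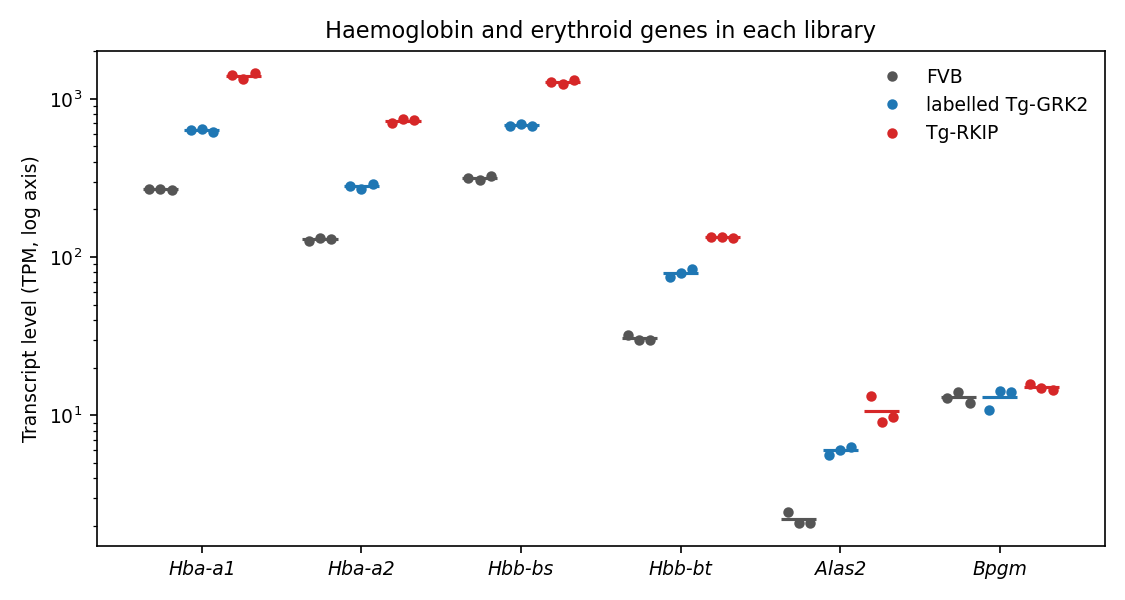
TPM of 6 member genes in each library on a log axis, with points for single libraries and a bar for the mean of each group of 3. The 4 globin genes step up from FVB over the hearts labelled Tg-GRK2 to Tg-RKIP without overlap, whereas Bpgm stays between 10.7 and 15.7 TPM in all libraries.

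Among the alpha globin genes, Hba-a1 had the higher level. Its TPM was 1417, 1343 and 1451 in Tg-RKIP, 634, 646 and 613 in the hearts labelled Tg-GRK2, and 268, 268 and 266 in FVB. These groups did not overlap, and the 3 FVB hearts lay within 2.57 TPM of each other. In a count model across all genes with TMM normalization, Hba-a1 was 3.93-fold higher in Tg-RKIP than in FVB (log2 fold change 1.97 ± 0.027 SE, adjusted p = 6.64e-24, edgeR quasi-likelihood test, Benjamini-Hochberg adjusted). By this test it was 1.19 ± 0.028 for the hearts labelled Tg-GRK2 against FVB (adjusted p = 1.95e-18, edgeR) and 0.79 ± 0.025 for Tg-RKIP against the hearts labelled Tg-GRK2 (adjusted p = 1.74e-17, edgeR).

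Hba-a2 encodes the same kind of chain from the neighbouring copy. Its TPM was 699, 748 and 738 in Tg-RKIP, 281, 269 and 289.8 in the hearts labelled Tg-GRK2, and 126, 132 and 129.7 in FVB. The groups were again separate, and Hba-a2 had the largest log2 fold change of the globin genes between Tg-RKIP and FVB, 2.08 ± 0.035 (adjusted p = 2.30e-22, edgeR), which placed it 389th from the highest of 15504 tested genes. The log2 fold change was 1.07 ± 0.037 for the hearts labelled Tg-GRK2 against FVB (adjusted p = 3.18e-15, edgeR) and 1.01 ± 0.032 for Tg-RKIP against the hearts labelled Tg-GRK2 (adjusted p = 1.34e-17, edgeR).

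Hbb-bs was the more abundant beta globin gene. Its TPM was 1284, 1242 and 1314 in Tg-RKIP, 678, 689 and 672 in the hearts labelled Tg-GRK2, and 318, 307 and 326 in FVB. No 2 groups overlapped, but the step from the hearts labelled Tg-GRK2 to Tg-RKIP was smaller than for the alpha genes. On the TMM scale the log2 fold change was 1.60 ± 0.024 for Tg-RKIP against FVB (adjusted p = 4.30e-23, edgeR), 1.05 ± 0.025 for the hearts labelled Tg-GRK2 against FVB (adjusted p = 1.99e-18, edgeR) and 0.55 ± 0.023 between the transgenic groups (adjusted p = 3.02e-15, edgeR).

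Hbb-bt, the second adult beta globin gene, was the least abundant of the 4. Its TPM was 134, 135 and 133 in Tg-RKIP, 74.3, 79.5 and 84.1 in the hearts labelled Tg-GRK2, and 32.3, 30.0 and 29.9 in FVB, without overlap between groups. In the count model its log2 fold change was 1.71 ± 0.047 for Tg-RKIP against FVB (adjusted p = 1.67e-18, edgeR), 1.32 ± 0.050 for the hearts labelled Tg-GRK2 against FVB (adjusted p = 1.51e-14, edgeR) and 0.38 ± 0.039 for Tg-RKIP against the hearts labelled Tg-GRK2 (adjusted p = 1.30e-08, edgeR). The 2 comparisons with FVB share the FVB libraries, and the comparison of the transgenic groups shares its libraries with both, so the 3 comparisons are not independent.

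The division of reads within each pair carries an uncertainty that does not touch the pair sums. Of the 50-base windows in the Hba-a1 transcript that holds its reads, 88.8% occur identically in the Hba-a2 transcript, and 86.9% in the opposite direction, in the GENCODE M21 transcripts of the same identifiers and lengths. For Hbb-bs and Hbb-bt the shares were 65.8% and 58.3%. How reads that match both copies were assigned is not given in the sources used here. Hba-a1 took 63.2 ± 1.47% of the alpha globin reads in Tg-RKIP, 66.8 ± 1.39% in the hearts labelled Tg-GRK2 and 64.8 ± 0.566% in FVB. Hbb-bs took 89.5 ± 0.339%, 88.4 ± 0.683% and 90.2 ± 0.432% of the beta globin reads. The largest difference between groups was -3.56 percentage points, for Hba-a1 in Tg-RKIP against the hearts labelled Tg-GRK2. The 6 comparisons gave exact permutation p between 0.1 and 0.2 (adjusted p between 0.15 and 0.2 over 9 comparisons).

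In the annotation, Hba-a1 lies at chr11:32233511-32234465 and Hba-a2 at chr11:32246489-32247298 on the plus strand, and Hbb-bs at chr7:103475741-103477303 and Hbb-bt at chr7:103461731-103463203 on the minus strand. These are coordinates of the deposited tables, for which the submitters' processing notes name GRCm39. Nearly all Hba-a1 reads were listed on a 494-base transcript annotated as a retained intron, and the 699-base coding transcript received 11 reads in 1 heart labelled Tg-GRK2 and none in the other libraries. Hba-a2 reads were all listed on its 554-base coding transcript.

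**Figure D2:**
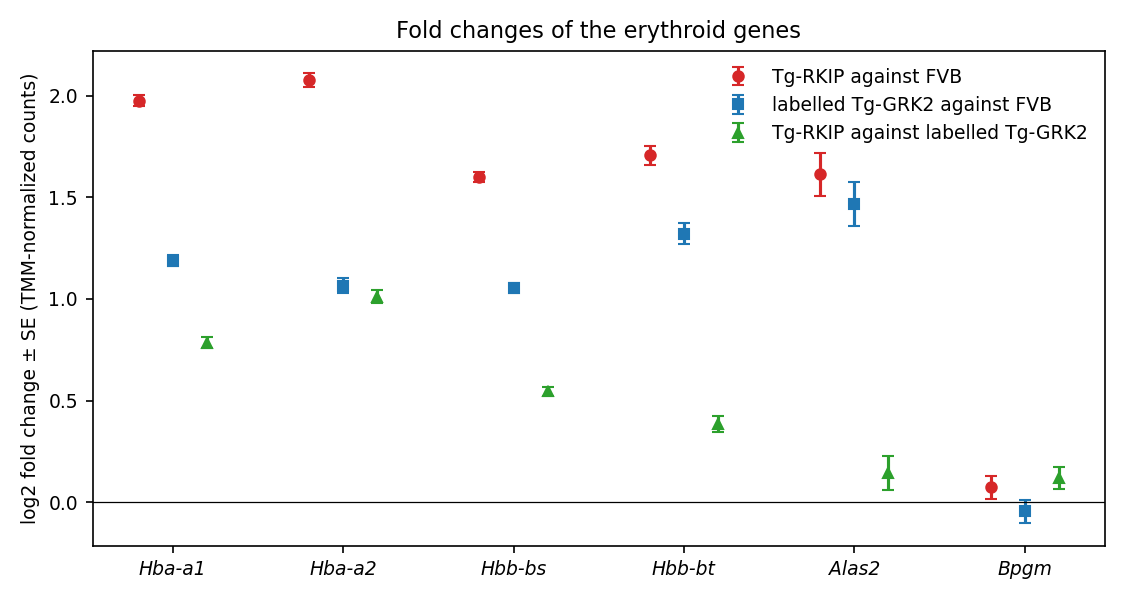
log2 fold changes with standard errors from the count model (TMM-normalized reads, edgeR) for 6 member genes in the 3 comparisons. The alpha genes lie near 2 for Tg-RKIP against FVB and the beta genes near 1.6 to 1.7, Alas2 reaches nearly the same value in both transgenic groups, and Bpgm lies close to 0.

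The balance between alpha and beta globin transcripts differed between Tg-RKIP and the other groups. The ratio of summed alpha to summed beta globin TPM was 1.49, 1.52 and 1.51 in Tg-RKIP, 1.22, 1.19 and 1.19 in the hearts labelled Tg-GRK2, and 1.13, 1.19 and 1.11 in FVB. All Tg-RKIP hearts lay above all others, while the hearts labelled Tg-GRK2 and FVB nearly touched. The ratio was 1.32 times higher in Tg-RKIP than in FVB and 1.26 times higher than in the hearts labelled Tg-GRK2, and 1.05 times higher in the latter than in FVB, each with p = 0.1 in the two-sided exact permutation test (adjusted p = 0.1 over 6 comparisons). Taken as a ratio of reads, without division by transcript length, the means were 1.22 ± 0.0127, 0.968 ± 0.0116 and 0.925 ± 0.0325. On this scale the hearts labelled Tg-GRK2 (from 0.959) overlapped FVB (up to 0.963), with p = 0.2 in the exact permutation test. This ratio is formed within each library and does not depend on the scaling between libraries or on the division of reads within a pair of copies, other than through transcript length. Per transcript length, in TPM, Hba-a1 exceeded Hbb-bs in all 3 Tg-RKIP libraries and lay below it in the 6 other libraries, whereas Hbb-bs had more reads than Hba-a1 in all 9 libraries. That order in TPM rests on the 494-base length used for Hba-a1 and on the uncertain division of reads within the pairs.

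Alas2, the erythroid enzyme of haem synthesis at chrX:149330371-149353634, followed the globin genes. It had 312, 356 and 273 reads in Tg-RKIP, 206, 225 and 274 in the hearts labelled Tg-GRK2, and 86, 86 and 66 in FVB. The corresponding TPM values were 13.2, 9.06 and 9.74, then 5.59, 6.07 and 6.35, and 2.45, 2.10 and 2.08. Both transgenic groups lay above FVB in all libraries. The log2 fold change was 1.61 ± 0.10 for Tg-RKIP against FVB (adjusted p = 6.66e-12, edgeR) and 1.47 ± 0.11 for the hearts labelled Tg-GRK2 against FVB (adjusted p = 1.44e-09, edgeR). Between the transgenic groups it was 0.14 ± 0.085 (adjusted p = 0.128, edgeR), so that a difference in TMM-normalized Alas2 reads was not resolved, although the TPM values of these groups did not overlap.

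The TPM of Alas2 depended on how its reads were divided among transcripts of different length. A processed transcript of 569 bases was listed with 50, 11 and 20 reads in Tg-RKIP, with 0 reads in all hearts labelled Tg-GRK2, and with 0, 0 and 3 reads in FVB. The coding transcripts of 2037 and 1892 bases shared the remaining reads in proportions that varied between hearts of the same group, with 80 and 126 reads in one heart labelled Tg-GRK2 and 218 and 7 in another. Relative to globin, Alas2 had 8.62 ± 0.678 reads per 1000 globin reads in Tg-RKIP, 12.6 ± 1.05 in the hearts labelled Tg-GRK2 and 9.89 ± 1.28 in FVB. The lowest heart labelled Tg-GRK2 (11.5) lay above the highest FVB heart (11.2), and all Tg-RKIP hearts were below the former group. Exact permutation p was 0.1 for both comparisons with the hearts labelled Tg-GRK2 and 0.2 for Tg-RKIP against FVB (adjusted p of 0.15 and 0.2 over 9 comparisons).

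**Figure D3:**
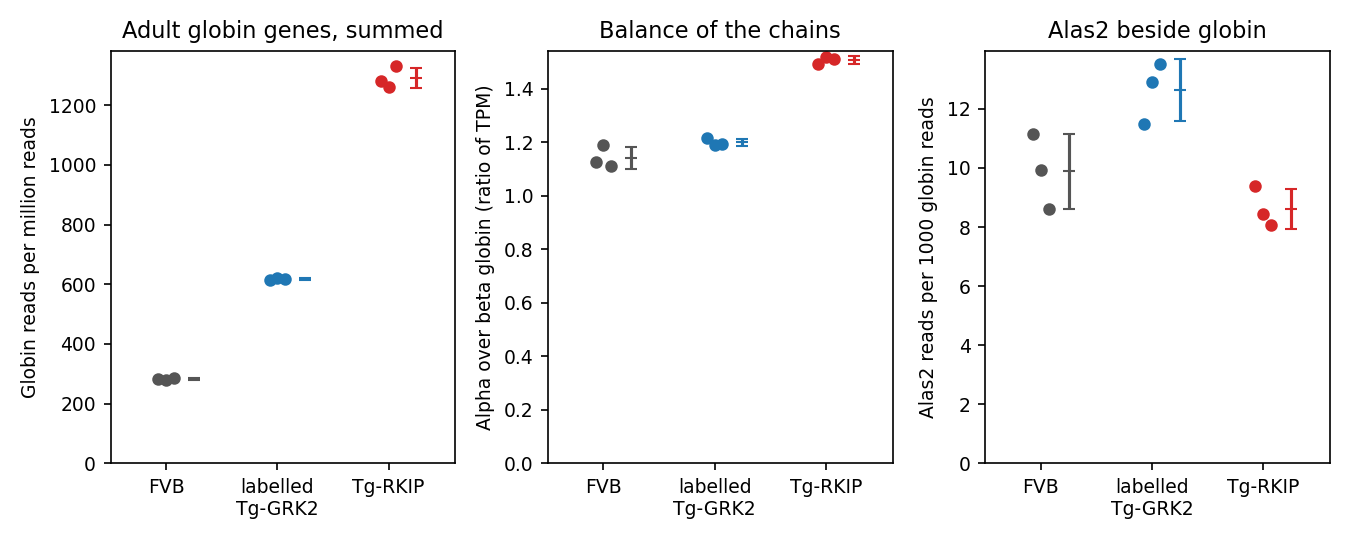
Summed globin reads per 1000000 reads, the ratio of alpha to beta globin TPM, and Alas2 reads per 1000 globin reads, with points for single libraries and bars for mean ± s.d. (n=3). Globin rises in 2 steps, the ratio of alpha to beta globin is raised in Tg-RKIP at 1.51 ± 0.0135, and Alas2 per globin read is highest in the hearts labelled Tg-GRK2.

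The red cell membrane genes Slc4a1 and Epb42 were at the limit of detection. Slc4a1 (chr11:102239650-102257029) had 7, 9 and 3 reads in Tg-RKIP, 14, 11 and 13 in the hearts labelled Tg-GRK2, and 0, 1 and 1 in FVB. Its reads thus were most numerous in the hearts labelled Tg-GRK2 and not in Tg-RKIP, unlike those of globin. Relative to total reads, the ratio was 9.53 for Tg-RKIP over FVB (19 against 2 reads, 95% exact counting interval 2.30 to 84.4), 17.9 for the hearts labelled Tg-GRK2 over FVB (38 against 2 reads, 4.63 to 153), and 0.531 for Tg-RKIP over the hearts labelled Tg-GRK2 (0.289 to 0.945). These intervals cover counting error only. The gene passed the filter on low counts only through its reads in the hearts labelled Tg-GRK2, so that its call by the count model is no independent test and is left out of the counts of members. Epb42 (chr2:120848372-120867553) had at most 2 reads in any library and was not tested, so no statement on group differences is made for it.

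Bpgm (chr6:34453142-34482548) did not follow the other members. Its TPM was 15.7, 14.9 and 14.4 in Tg-RKIP, 10.7, 14.3 and 14.1 in the hearts labelled Tg-GRK2, and 12.8, 14.1 and 12.0 in FVB. Its value in the count model was 0.07 ± 0.055 on the log2 scale for Tg-RKIP against FVB (adjusted p = 0.24, edgeR), -0.04 ± 0.058 for the hearts labelled Tg-GRK2 against FVB (adjusted p = 0.639, edgeR) and 0.12 ± 0.055 between the transgenic groups (adjusted p = 0.0584, edgeR). Scaling by library size alone, which raised the median of all tested genes by 0.38 on the log2 scale in both comparisons with Tg-RKIP, gave Bpgm values of 0.45 and 0.48 there, that is 0.06 and 0.10 above that median. Bpgm had the lowest log2 fold change of the tested members in both comparisons with FVB, at a level of reads (408 to 717 per library) above that of Alas2.

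One Bpgm transcript of 596 bases (ENSMUST00000149131) differed in its listing between groups. It received 0 reads in each Tg-RKIP library, 10, 44 and 59 reads in the hearts labelled Tg-GRK2, and 35, 48 and 26 reads in FVB. As shares of all Bpgm reads these were 8.12% in the hearts labelled Tg-GRK2 and 8.10% in FVB, and 0 of 1828 reads in Tg-RKIP, which allows a share of up to 0.164% (counting error only). The transcript was singled out after its values were seen, and its difference was not tested. The 2220-base transcript held nearly all other Bpgm reads, and its log2 fold change alone was 0.18 for Tg-RKIP against FVB (adjusted p = 0.0195, edgeR).

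**Figure D4:**
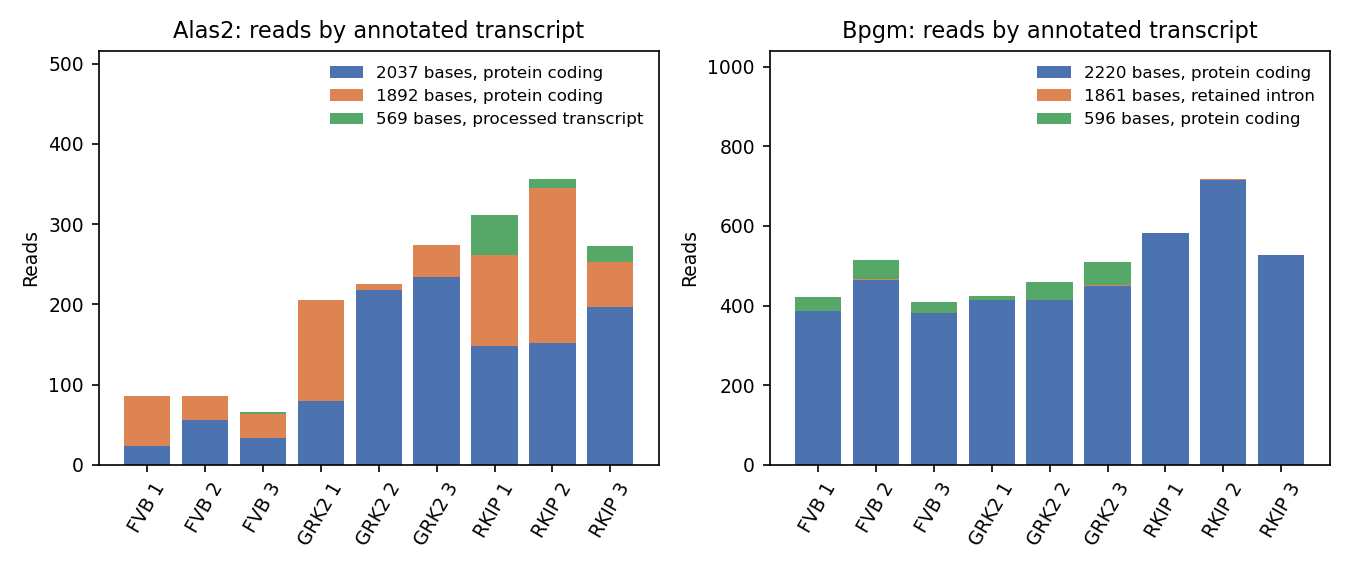
Reads of Alas2 and Bpgm in each library, stacked by annotated transcript (FVB, hearts labelled Tg-GRK2 and Tg-RKIP, each with replicates 1 to 3). The 569-base Alas2 transcript appears almost only in Tg-RKIP, and the 596-base Bpgm transcript is missing there, while total Bpgm reads range from 408 to 717.

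Of the 6 members tested other than Slc4a1, 5 were higher in Tg-RKIP than in FVB at an adjusted p under 0.05 (edgeR), namely the globin genes and Alas2, against 36.8% of all 15504 tested genes called higher and 37.1% called lower in this comparison (62.6% and 17.1% with scaling by library size alone). Their median log2 fold change was 1.66, compared with 0.0085 over all tested genes. In the hearts labelled Tg-GRK2, 5 of 6 were likewise higher than in FVB, against a background of 12.2% of all tested genes called higher and 12.2% called lower, with a median of 1.13 compared with -0.0023 over all tested genes. Between Tg-RKIP and the hearts labelled Tg-GRK2, the 4 globin genes were higher and 0 of 6 were lower, against 37.9% and 36.6% of all tested genes (62.0% and 18.4% with library size alone), with a median of 0.46 compared with 0.02 over all tested genes. At a log2 fold change of at least 1, 10.2% of all tested genes were higher in Tg-RKIP than in FVB, but 0.929% in the hearts labelled Tg-GRK2. The 4 globin genes and Alas2 passed that limit in both comparisons.

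The other genes of the globin loci were practically silent. Hba-x, Hbq1a, Hbq1b, Hbb-y, Hbb-bh1 and Hbb-bh2, which include the embryonic chains, had between 0 and 5 reads per library, and none of these 6 could be tested. Genes that mark nucleated red cell precursors were at a similar level. Klf1 and Gata1 (erythroid transcription factors) had at most 5 reads in any library, and Hemgn, Rhag, Kel, Car1, Tspo2 and Cldn13 had at most 2. None of these 14 genes was tested, so no statement on group differences is made for them. The reads of Klf1 numbered 1, 0 and 2 in Tg-RKIP, 1, 1 and 0 in the hearts labelled Tg-GRK2, and 2, 5 and 4 in FVB.

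The remaining genes of haem synthesis did not share the increase of Alas2. Of 10 tested genes of this list, 8 were lower in Tg-RKIP than in FVB and 0 higher, with a median log2 fold change of -0.31, whereas scaling by library size alone left 2 lower and 3 higher (median 0.06, which is -0.32 relative to the median of all genes). The genes with the largest change were Fech (ferrochelatase, the last enzyme of the pathway) at -0.71 ± 0.03 (adjusted p = 5.85e-16, edgeR), Alas1 (the form of the first enzyme used in most tissues) at -0.70 ± 0.02 (adjusted p = 7.77e-17, edgeR) and Alad (the second enzyme) at -0.36 ± 0.04 (adjusted p = 1.36e-08, edgeR). With library size alone, Fech and Alas1 were at -0.34 and -0.33, and Alad turned to 0.02. In the hearts labelled Tg-GRK2, 4 of 10 were higher and 0 lower than in FVB, with a median of 0.03. Cpox (coproporphyrinogen oxidase) stood at 0.29 ± 0.03 (adjusted p = 1.10e-06, edgeR), Slc25a37 (mitoferrin 1, which imports iron into mitochondria) at 0.29 ± 0.07 (adjusted p = 0.00668, edgeR) and Alas1 at 0.19 ± 0.02 (adjusted p = 2.25e-06, edgeR). Under both scalings, Alas2 and Alas1 moved in opposite directions in Tg-RKIP and in the same direction in the hearts labelled Tg-GRK2. The level of Alas1 was far higher in the heart, at 90.6 ± 0.9 TPM in Tg-RKIP, 131 ± 6.9 TPM in the hearts labelled Tg-GRK2 and 111 ± 2.4 TPM in FVB. Between the transgenic groups, 9 of the 10 genes were lower in Tg-RKIP and 1 was higher, but 3 and 3 with library size alone. Of all tested genes, 36.8% were called higher and 37.1% lower in Tg-RKIP against FVB (62.6% and 17.1% with library size alone). The shares were 12.2% and 12.2% in the hearts labelled Tg-GRK2 against FVB. They were 37.9% and 36.6% between the transgenic groups (62.0% and 18.4% with library size alone).

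Of the red cell membrane genes other than the members, 11 of 17 were tested, and 8 of these were lower and 1 higher in the hearts of Tg-RKIP mice compared with FVB (median -0.30), a balance that changed to 4 lower and 4 higher with library size alone (median 0.07). Sptb (beta spectrin) at -1.32 ± 0.02 (adjusted p = 7.71e-22, edgeR) and Xk (a membrane protein of the Kx blood group) at -1.15 ± 0.08 (adjusted p = 1.12e-11, edgeR) fell, and did so under both scalings. Several of these genes are also expressed in striated muscle, as are Ank1 and Tmod1, so the list is not specific for red cells in this tissue. In the hearts labelled Tg-GRK2, 3 of 11 were higher and 1 was lower than in FVB (median 0.06), with Rhd at -0.31 ± 0.07 (adjusted p = 0.00317, edgeR), Sptb at 0.28 ± 0.02 (adjusted p = 3.73e-09, edgeR) and Ank1 at 0.09 ± 0.02 (adjusted p = 0.000761, edgeR). In Tg-RKIP against the hearts labelled Tg-GRK2, 7 were lower and 1 was higher, and 4 and 3 with library size alone. Of all tested genes, 36.8% were called higher and 37.1% lower in Tg-RKIP, and 12.2% and 12.2% in the hearts labelled Tg-GRK2, against FVB. Between the transgenic groups the shares were 37.9% and 36.6%.

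Only 3 of 10 measured erythroid regulators and maturation genes could be tested. Tfrc, the transferrin receptor that takes up iron, fell by 1.08 on the log2 scale in Tg-RKIP (SE 0.03, adjusted p = 7.96e-18, edgeR) and rose in the hearts labelled Tg-GRK2 (0.58 ± 0.03, adjusted p = 2.81e-12, edgeR), each against FVB. Tal1, a transcription factor of blood and endothelial precursors, was higher in Tg-RKIP (0.22 ± 0.09, adjusted p = 0.0415, edgeR). The counts were therefore 1 higher and 1 lower in Tg-RKIP, 1 higher and 0 lower in the hearts labelled Tg-GRK2, and 2 higher and 1 lower in Tg-RKIP against the latter. The shares of all tested genes in these comparisons were 36.8% and 37.1%, 12.2% and 12.2%, and 37.9% and 36.6%. With library size alone, 2 were higher and 1 was lower in Tg-RKIP against FVB. The change came from Epor (the erythropoietin receptor), named here as an exception. It stood at 0.32 ± 0.14 (adjusted p = 0.0502, edgeR) with TMM and at 0.70 (adjusted p = 0.000156, edgeR) with library size alone.

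Of 5 tested red cell enzymes and cytosolic proteins, 2 rose and 2 fell in Tg-RKIP (3 and 1 with library size alone), and 1 rose and 2 fell in the hearts labelled Tg-GRK2, against FVB. The counts in Tg-RKIP lie near the shares of all tested genes, 36.8% higher and 37.1% lower (62.6% and 17.1% with library size alone). For the hearts labelled Tg-GRK2 those shares were 12.2% and 12.2%. Blvrb (biliverdin reductase B) was higher in Tg-RKIP at 0.70 ± 0.07 (adjusted p = 2.39e-08, edgeR), whereas Car2 (carbonic anhydrase 2) at -0.76 ± 0.12 (adjusted p = 7.48e-06, edgeR) and Cat (catalase) at -0.40 ± 0.02 (adjusted p = 7.98e-14, edgeR) were lower. With library size alone, Cat was at -0.03 and had no call (adjusted p = 0.203, edgeR). Blvrb at 1.08 and Car2 at -0.39 kept their calls under that scaling. In the hearts labelled Tg-GRK2, Prdx2 (peroxiredoxin 2) stood at -0.18 ± 0.02 (adjusted p = 6.71e-07, edgeR) and Cat at -0.10 ± 0.02 (adjusted p = 0.000748, edgeR). Tg-RKIP exceeded the hearts labelled Tg-GRK2 in 2 of the 5 genes and lay below them in 2 (3 and 1 with library size alone). This is near the shares of all tested genes, 37.9% and 36.6%.

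Genes of haemoglobin and haem clearance and of iron handling showed different directions in the transgenic groups. Of 8 tested, 6 rose and 2 fell in Tg-RKIP against FVB (median 0.48, and 7 and 1 with library size alone), whereas 1 was higher and 5 were lower in the hearts labelled Tg-GRK2 (median -0.14). Hp (haptoglobin, which binds free haemoglobin) was higher in both, at 2.97 ± 0.07 (adjusted p = 9.87e-20, edgeR) in Tg-RKIP and 1.15 ± 0.09 (adjusted p = 4.09e-09, edgeR) in the hearts labelled Tg-GRK2. Hmox1 (haem oxygenase 1, which degrades haem) was higher in Tg-RKIP at 1.43 ± 0.06 (adjusted p = 7.43e-16, edgeR) and lower in the hearts labelled Tg-GRK2 at -0.41 ± 0.07 (adjusted p = 0.000226, edgeR). Tested directly between the transgenic groups, the log2 fold change of Hmox1 was 1.84 ± 0.06 (adjusted p = 1.62e-17, edgeR). Hamp (hepcidin, the hormone that blocks iron export) was lower in both, at -2.37 ± 0.09 (adjusted p = 3.34e-16, edgeR) and -0.48 ± 0.07 (adjusted p = 2.82e-05, edgeR). Against the hearts labelled Tg-GRK2, 7 of the 8 genes were higher and 1 was lower in Tg-RKIP, compared with 37.9% and 36.6% of all tested genes. Against FVB, 36.8% of all tested genes were called higher and 37.1% lower in Tg-RKIP, and 12.2% and 12.2% in the hearts labelled Tg-GRK2.

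Markers of platelets, neutrophils and B cells were in part higher in both transgenic groups. Of 6 platelet markers, 5 were higher in Tg-RKIP and 3 in the hearts labelled Tg-GRK2 than in FVB, with 0 lower, and their summed level ranged from 52.9 to 62.5, from 34.6 to 37.6 and from 26.7 to 27.5 TPM in Tg-RKIP, the hearts labelled Tg-GRK2 and FVB. Of 6 neutrophil markers, 3 were tested, and 3 and 2 of them were higher. Their sums over all 6 ranged from 13.5 to 15.7, from 5.78 to 6.44 and from 0.496 to 1.20 TPM, and Camp had no read in the hearts labelled Tg-GRK2. The B cell markers were higher in 4 of 4 and in 2 of 4 cases, with sums from 6.44 to 7.78, from 1.30 to 2.03 and from 0.877 to 1.13 TPM. For comparison, 36.8% of all tested genes were called higher in Tg-RKIP and 12.2% in the hearts labelled Tg-GRK2, each against FVB. The part of other blood cells in the globin result was not tested.

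Individual markers of blood, chosen after their values were seen, show how far these values matched those of globin. Ltf (lactoferrin, a granule protein of neutrophils) stood at 5.80 ± 0.69 TPM in Tg-RKIP, 4.03 ± 0.60 TPM in the hearts labelled Tg-GRK2 and 0.112 ± 0.094 TPM in FVB. Ltf made up most of the neutrophil sum in the hearts labelled Tg-GRK2 (mean 6.20 TPM). Between the transgenic groups Ltf was at -0.03 (adjusted p = 0.826, edgeR), or 0.33 with library size alone (adjusted p = 0.0112, edgeR). S100a8 and S100a9 were there at 1.55 and 1.79 (adjusted p = 0.000282 and 6.46e-05, edgeR). S100a9 had no call in the hearts labelled Tg-GRK2 against FVB (1.05, adjusted p = 0.151, edgeR). Ppbp (platelet basic protein) stood at 6.04 ± 0.58, 6.11 ± 0.065 and 1.11 ± 0.15 TPM and was lower in Tg-RKIP than in the hearts labelled Tg-GRK2 by the count model with TMM (-0.39 ± 0.12, adjusted p = 0.00507, edgeR) but not with library size alone (-0.03, adjusted p = 0.844, edgeR). Pf4 (platelet factor 4) stood at 46.5 ± 5.2, 26.8 ± 1.8 and 23.9 ± 0.12 TPM with no call in the hearts labelled Tg-GRK2 against FVB (0.09 ± 0.10, adjusted p = 0.566, edgeR). The step in Ppbp was thus complete in the hearts labelled Tg-GRK2, unlike that of globin, but the platelet markers differed among themselves. Between the transgenic groups, no difference was resolved for Gp9 (0.10 ± 0.45, adjusted p = 0.848, edgeR) and Itga2b (-0.09 ± 0.18, adjusted p = 0.671, edgeR). Gp1bb, with few reads, was higher in Tg-RKIP there (3.91 ± 0.64, adjusted p = 1.29e-05, edgeR). It had no call in the hearts labelled Tg-GRK2 against FVB (-1.70 ± 0.91, adjusted p = 0.196, edgeR).

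T cell and macrophage markers were higher in Tg-RKIP, while 3 of 5 endothelial and 6 of 7 heart muscle markers were lower there in the count model with TMM. All 5 T cell markers were higher in Tg-RKIP than in FVB and 0 of 5 passed the threshold in the hearts labelled Tg-GRK2, with sums from 5.48 to 9.09, from 1.46 to 2.00 and from 2.05 to 2.29 TPM in the 3 groups. The 5 macrophage markers were higher in 5 and 3 cases, with sums from 263 to 271, from 112 to 117 and from 104 to 105 TPM. Of 5 endothelial markers, 2 were higher and 3 lower in Tg-RKIP, and 2 were higher in the hearts labelled Tg-GRK2, with sums from 398 to 420.1, from 233 to 241 and from 225 to 227 TPM. The higher sum in Tg-RKIP came mainly from Vwf, named here as an exception, at 192 ± 10.3 TPM against 37.2 ± 1.35 TPM in FVB. Pecam1 also rose, to 113 from 71.5 TPM, whereas Cdh5, Kdr and Tek did not. Of the 7 heart muscle markers, 6 were lower in Tg-RKIP (5 lower and 2 higher with library size alone), and 5 were lower and 2 higher in the hearts labelled Tg-GRK2. Between the transgenic groups, the numbers of markers above and below in Tg-RKIP were 2 and 1 for platelets, 2 and 0 for neutrophils, 4 and 0 for B cells, 5 and 0 for T cells, 5 and 0 for macrophages, 2 and 3 for endothelium, and 1 and 5 for heart muscle. The shares of all tested genes there were 37.9% and 36.6%. Against FVB they were 36.8% and 37.1% in Tg-RKIP, and 12.2% and 12.2% in the hearts labelled Tg-GRK2.

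**Figure D5:**
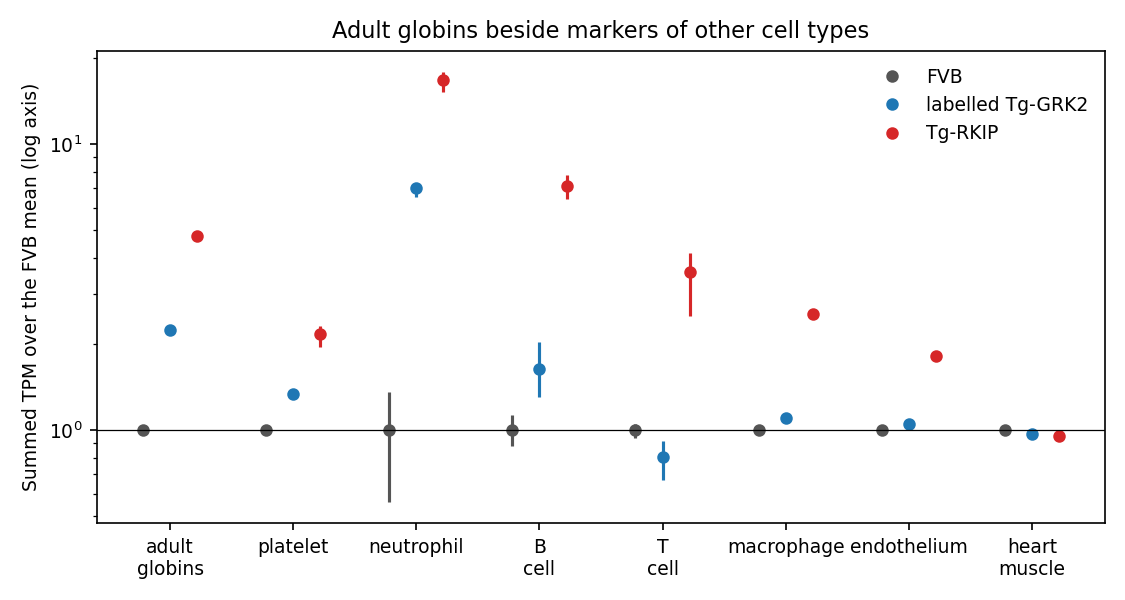
Summed TPM of the adult globin genes and of marker lists of other cell types, relative to the FVB mean, on a log axis, with points for group means and lines for the range over 3 libraries. The sums of neutrophil and platelet markers stand above FVB in both transgenic groups like globin, whereas that of T cell markers does so in Tg-RKIP only. The heart muscle sum stays close to 1, although 6 of its 7 markers were lower in Tg-RKIP in the count model with TMM. The endothelial sum is raised in Tg-RKIP mainly through Vwf, while 3 of the 5 endothelial markers were lower there in the count model.

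Among the genes outside the members with at least 100 reads on average, those whose centred log2 level over the 9 libraries differed least from the mean profile of the 4 globin genes were Col3a1 (a fibrillar collagen), Ifi27l2a (an interferon-induced gene), Prkar2b (a regulatory subunit of protein kinase A), Fcrls and Erdr1. Their mean absolute differences from this profile were 0.14, 0.17, 0.17, 0.19 and 0.19 on the log2 scale. For comparison, the values were 0.06 for Hba-a1, 0.09 for Hbb-bs, 0.11 for Hbb-bt and 0.13 for Hba-a2, which form the profile, and 0.22 for Alas2, which does not. Col3a1 stood at 364 ± 8.07 TPM in Tg-RKIP, 135 ± 5.23 TPM in the hearts labelled Tg-GRK2 and 85.6 ± 2.00 TPM in FVB. Its log2 fold change was 1.63 in Tg-RKIP and 0.76 in the hearts labelled Tg-GRK2 against FVB, the second of which was below that of each globin gene. None of the 5 genes is a red cell marker, and the profile rests on 3 group levels, which many genes share.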

How the data were processed

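The authors deposited whole-number counts of reads per Ensembl transcript for all libraries and TPM per transcript for each library. The submitters' processing notes name GRCm39; the aligner, counting program and treatment of reads shared by gene copies are not given in the sources used here. Counts and TPM were summed by gene name with Python 3.11.15 and pandas 2.3.3. Gene counts of all 9 libraries were fitted with the edgeR 4.0.16 quasi-likelihood test (R 4.3.3, TMM normalization, filterByExpr with a minimum count of 10, no covariate), with Benjamini-Hochberg adjustment over 15504 genes and a threshold of 0.05. The scripts were tested on simulated data. Globin shares and ratios were compared by two-sided exact permutation tests. Alternatives used DESeq2 1.42.0 and limma 3.58.1 on log2(TPM + 0.1) or log2(TPM + 1). Fold changes in the text are log2 values of TMM-normalized counts unless TPM is named.

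The p-values measure the spread between these libraries, each of which was treated as a separate heart. This spread was small: the coefficient of variation between libraries of a group beyond counting error, as fitted by edgeR, was 2.86%. The very low p-values of edgeR rest on it, and why the spread was so small was not tested. Named genes were the 8 members, up to 3 genes per pathway list and comparison with FVB with the largest change among those past the threshold with at least 100 reads on average in the higher group, and the 5 genes closest to the globin profile. Exceptions are named as such in the text. Some genes of the lists are counted but not reported here by name. The members and lists were chosen with earlier results of these data known.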

Additional observations from a re-analysis of the deposited data

How the results depend on the processing

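For the log2 fold changes of the members, 141 of 143 alternative values kept their direction and their side of the threshold in Tg-RKIP against FVB, 144 of 144 in the hearts labelled Tg-GRK2 against FVB, and 133 of 144 between the transgenic groups. Of the values that kept both, 17, 18 and 15 in these comparisons belong to Slc4a1. They lend no support, because the call of that gene is no independent test. Library size scaling alone moved Bpgm past the threshold (0.45 against FVB, 0.48 between the transgenic groups), as well as Alas2 between the transgenic groups (0.51), and moved Slc4a1 there below it (-0.90, adjusted p = 0.0531, edgeR). This scaling raised the median of all genes by 0.38. Using the most abundant transcript moved Bpgm past the threshold (0.18 and 0.22) and reversed Alas2 between the transgenic groups (-0.35, adjusted p = 0.482, edgeR), where limma on TPM gave 0.80 and 0.72. DESeq2 gave -1.30 for Slc4a1 between the transgenic groups (adjusted p = 0.0624). When single libraries were left out, Slc4a1 ranged there from -1.46 to -0.998 (not past the threshold without Tg-RKIP replicate 3) and Bpgm from 0.076 to 0.15 (past it without Tg-RKIP replicate 3 or without replicate 2 labelled Tg-GRK2). The number of genes called in the hearts labelled Tg-GRK2 against FVB was 3793, and 2191 and 2232 with limma. Apart from the scaling and the transcript mix, the cause of these changes was not tested.

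The deviations from the group means of libraries with the same replicate number correlated only weakly, between -0.0414 and 0.0422. With the replicate number as a block, 3660 genes were called in the hearts labelled Tg-GRK2 against FVB, and the calls of the members did not change. In the comparison of the 2 transgenic groups with each other and of Tg-RKIP with FVB, not every library correlated best with its own number. Each library labelled Tg-GRK2 did correlate best with the FVB library of its number, at values from 0.00618 to 0.0207.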
